A study of Mus musculus with 2 samples.

Results

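The 44 genes described here encode the proteins that mark replication origins, load and activate the replicative helicase, copy the DNA and join the new strands. They were taken by name from a list of origin and fork genes and make up 44 of the 18193 mouse genes that the arrays read with a probe set of their own. The choice was made with earlier results of these data known. The 44 genes were read by 96 probe sets, and 11 of the genes had only 1.

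RNA came from whole lungs of C57BL/6 mice that were 6 to 8 weeks old when 500000 Lewis lung carcinoma (LLC) cells in 200 µL were injected into a tail vein. These cells derive from a mouse lung carcinoma and form lung tumours after such an injection. In the vector control group the cells had been transfected with vector, and in the other group they overexpressed TDAG8, a proton-sensing receptor encoded by Gpr65. Both groups received tumour cells, and their lungs were taken on day 19. Each group gave 1 pool of RNA from 10 lungs, hybridised to 1 Affymetrix array, so the comparison rests on 2 arrays, has no replicate check and gives no p-value. The promoter that drove TDAG8, and whether each LLC line was 1 clone, were not stated in the sources used here.

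Before DNA synthesis the origin recognition complex binds origins and, with Cdc6 and Cdt1, loads rings of MCM2 to MCM7 onto the DNA. Kinases then recruit Cdc45 and the GINS complex, which turn the ring into the active CMG helicase, and polymerase alpha with primase lays down the first primers. Replication factor C loads the PCNA clamp for polymerases delta and epsilon, RPA covers single-stranded DNA, and Fen1 and Lig1 process and seal the lagging strand. Many of these genes are transcribed at the passage from G1 into S phase under E2F transcription factors, and most cells of an adult lung are not dividing.

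Values are intensities as deposited by the authors, on a linear scale. Signals under the median of their array, 26.3 for the vector control and 24.3 for TDAG8, were raised to that floor, and ratios against raised values are bounds. Log2 ratios (TDAG8 over vector control) were centred on the median of the 11044 genes that passed both floors; that median was -0.06. The 11949 genes above the floor on at least 1 array are called measured, and a gene is represented by its probe set with the highest mean level. Gpr65 itself went from 32.3 to 73.9, a log2 ratio of 1.25, close to the floor. Whether its probe set read the introduced TDAG8, the Gpr65 of the mice or both was not tested. The probe sets for the 3′ and 5′ ends of Actb gave a signal ratio of 1.36 in the vector control against 1.25 with TDAG8, and those of Gapdh gave 0.788 and 0.771. The Actb gene itself had a log2 ratio of -0.09. Gapdh has no single-gene probe set in the annotation, and its 3 control probe sets were higher with TDAG8, going from 2870 to 5224 (5′), from 2104 to 4393 (middle) and from 2261 to 4026 (3′). The 7 measured genes of a list of 10 reference genes had log2 ratios from -0.16 to 0.48 with a median of 0.21.

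All 44 replication genes were measured, 43 of them above the floor on both arrays, and all 44 had a higher centred intensity in lungs with TDAG8-overexpressing cells, as did 49.9% of all measured genes. At least 2-fold higher were 28 of the 44, or 63.6%, where 5.41% of all measured genes passed that limit. None was at least 2-fold lower, against 1.19% of all measured genes. Their median log2 ratio was 1.14, or 2.21-fold, and that of all measured genes was -0.0009. The range ran from 0.11 for Rfc2 to 1.84 for Gins1 and Cdc6, so no gene reached 4-fold by the probe set standing for it. Of all 11949 measured genes 86 were at least 4-fold higher. At a limit of 1.5-fold the count was 34 of 44, against 14.4% of all measured genes, and none was lower by that much, against 12.1%. The members next to the 2-fold limit were Pold2 and Mcm10 at log2 ratios of 1.01 each and Mcm4 at 1.05 above it, and Pcna at 0.91 below it. In whole-lung RNA, more replicating cells and more of each mRNA per cell cannot be told apart.

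**Figure D1:**
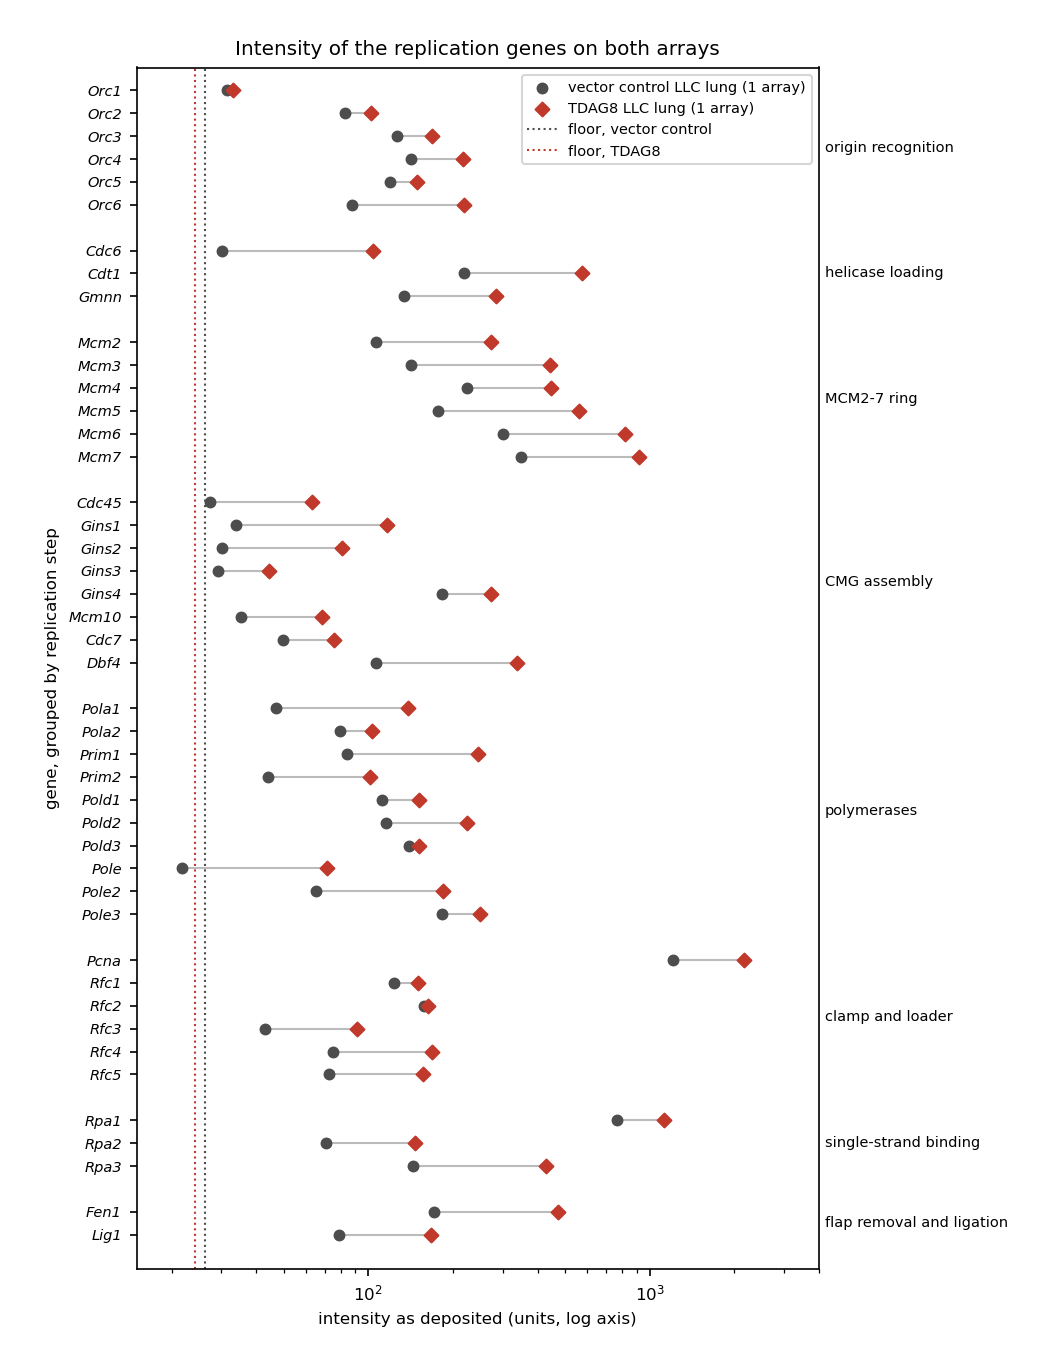
Intensity of each of the 44 genes (log axis, intensity units as deposited) in the vector control array (circles) and the TDAG8 array (diamonds), with dotted lines at the floors of 26.3 and 24.3. In every row the diamond lies to the right of the circle, and the gaps are short for Orc1, Pold3 and Rfc2 and long for Cdc6, Gins1, Mcm5 and Dbf4; only the circle of Pole lies left of its floor.

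Markers of other cells also differed between the arrays. Of 32 genes listed for alveolar, airway and endothelial cells 31 were measured and all 31 had lower values in the TDAG8 array, with a median log2 ratio of -0.58 and a summed intensity that went from 87566 to 63023. None of those genes was at 0, and the members with the strongest signal had log2 ratios of -0.12 (Sftpc), -0.15 (Scgb1a1), -0.51 (Ager) and -0.89 (Plvap). Of 8 monocyte and macrophage genes 7 had higher values, 5 of them past 2-fold, with a summed intensity that went from 2422 to 3332, and Csf1r at 0.20. The 5 measured neutrophil genes of 8 had a median of 0.28, with S100a8 at 0.10, and summed intensities of 1426 and 1419. The 6 measured T cell genes of 8 had a median of 0.19, with Cd3d at 0.27, and sums of 394 and 446. The 5 measured B cell genes and the 3 measured erythroid genes, of 8 each, had medians of -0.47 and -0.34, with Ms4a1 at -0.64 and Alas2 at -0.85, and their sums went from 519.0 to 361.5 and from 778 to 435.5. The part of these cell types in the replication gene values was not tested, and no measure of tumour load was used here.

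Origin recognition genes had the smallest median log2 ratio of any step, 0.43, and 1 of 6 was at least 2-fold higher. With a floor at percentile 65 their median was 0.46. That of the CMG assembly genes was 0.41, a lower bound left by dim control values, so the order of these steps is not fixed there. Orc6, the subunit that in human cells is the least tightly bound to the complex, stood apart from the rest: it went from 87.4 to 218.0, 2.60-fold. Orc2 went from 82.4 to 101.9, Orc3 from 126 to 169, Orc4 from 142 to 218 and Orc5 from 119 to 149, which gave log2 ratios between 0.36 and 0.68. These 4 genes encode the core of the ring that encircles origin DNA, and none of them reached 2-fold by this probe set. A second probe set of Orc2, going from 56.7 to 115.4, did so with a log2 ratio of 1.08, and the last one gave 0.75. The further probe sets of Orc3 gave 0.51 and -0.23 and those of Orc4 gave 0.08 and 0.09, so the probe sets of Orc3 lay on both sides of 0, and those of Orc4 that passed the floor lay above 0 but far apart.

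Orc1, the subunit whose level changes over the cell cycle in mammalian cells, was read close to the floor. Its stronger probe set went from 31.5 to 33.0, a log2 ratio of 0.13. The other went from 12.6, below the floor, to 40.0, and was at least 1.58-fold higher. The value of Orc1 therefore turns on which probe set stands for it, and both are dim.

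The loading factors were all more than 2-fold higher. Cdc6, the ATPase that joins the origin recognition complex, went from 30.2 to 104.0, 3.59-fold, from a control value close to the floor, and with a floor at percentile 65 its log2 ratio had a lower bound of 0.78. Cdt1, which brings the MCM ring to the origin, went from 219 to 577, 2.74-fold, and a second probe set going from 73.0 to 188 gave 2.68-fold. Gmnn encodes geminin, the protein that binds Cdt1 and blocks a second loading in the same cycle. It went from 133 to 283.5, 2.21-fold, so the loader and its inhibitor had higher values together.

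All 6 genes of the MCM ring passed 2-fold, with log2 ratios from 1.05 to 1.73 and a median of 1.47. Mcm5 went from 176 to 560.0, 3.31-fold, and Mcm3 from 142 to 443, 3.25-fold. Mcm6 went from 302 to 816, 2.82-fold, or 0.75 on the log2 scale when averaged with every other probe set, dim ones included. Mcm7 went from 348 to 916, 2.74-fold, and Mcm2 from 107 to 273, 2.66-fold. Mcm4, which forms the catalytic core with Mcm6 and Mcm7, was the lowest of the ring, going from 225 to 447, 2.07-fold. By the probe sets standing for the genes, the ring ratios lay within a span narrower than that of the polymerase or clamp loader genes. With the further probe sets above the floor included, the ring log2 ratios ran from 0.51 (Mcm2) to 1.96 (Mcm3).

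Further probe sets bore on the ring genes as well. For Mcm3 the other 3 probe sets above the floor gave log2 ratios of 1.27, 1.73 and 1.96, and for Mcm7 they gave 1.19, 1.39 and 1.40. Second probe sets gave 1.64 for Mcm5, 1.46 for Mcm6 and 1.27 for Mcm4. The exception was Mcm2, whose second probe set went from 112 to 153, a log2 ratio of 0.51 against 1.41 by the first. All other measured probe sets of the ring were at least 2-fold higher.

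**Figure D2:**
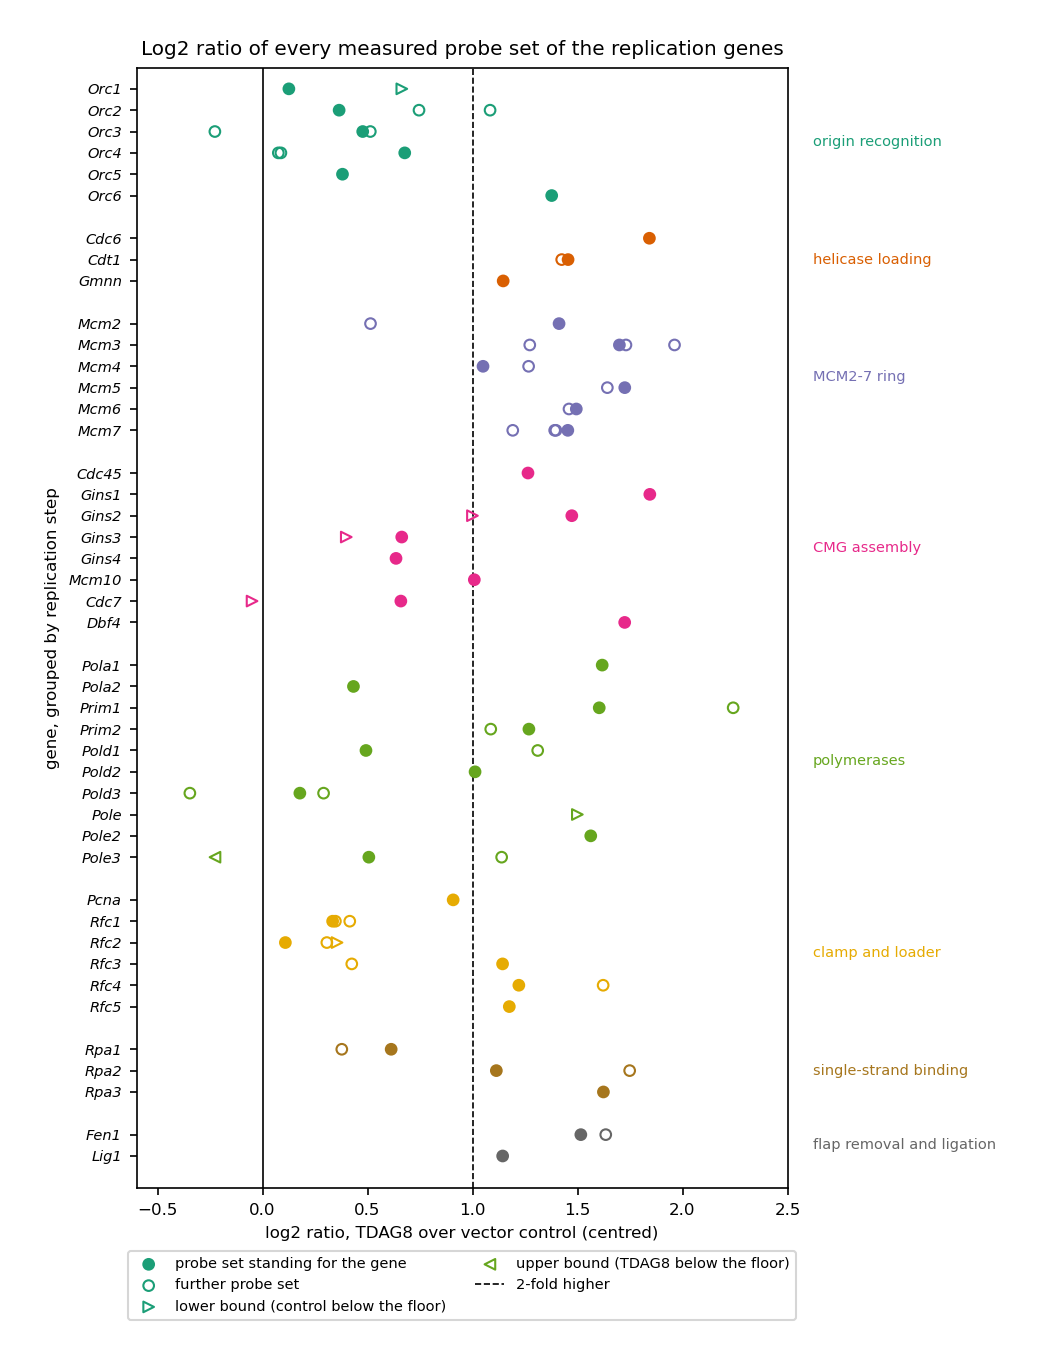
Log2 ratio, TDAG8 over vector control (x axis), for all 81 measured probe sets of the 44 genes (rows, by step). Filled circles stand for the gene, open circles are further probe sets, triangles are bounds where 1 array lay below the floor, and the dashed line marks 2-fold. Most MCM ring points lie right of the dashed line, and most origin recognition points lie left of it.

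Promoter sequences were examined because the loading factor and MCM ring genes had higher values together and are known as targets of E2F factors. RefSeq promoter windows of assembly GRCm38.p6, from 250 bases before to 50 bases after a transcription start, were at hand for 36 of the 44 genes, in 45 windows. Windows were not at hand for Gmnn, Mcm4, Gins1, Gins2, Gins4, Prim2, Pole and Rfc2. Each window was searched on both strands for the E2F words TTTCCCGC, TTTGGCGC, TTTGCCGC and TTTCGCGC, and words of opposite orientation may overlap. Shown here are the 170 bases before the start of 9 genes, 5′ to 3′ on the strand of the gene, with the E2F words in capitals. The 9 genes were chosen after their matches were seen. By the probe sets standing for the genes, Mcm5, Mcm6, Mcm7, Cdc6 and Pola1 pair such a word with a ratio over 2-fold. Gins3, Orc1 and Orc3 pair one with a ratio under it, and Mcm2 has none although it was 2.66-fold higher. A second probe set gave 1.43-fold for Mcm2, and for Orc1 at least 1.58-fold, a bound that does not fix its side of 2-fold.
Mcm5, chr8:75109339-75109508, plus strand: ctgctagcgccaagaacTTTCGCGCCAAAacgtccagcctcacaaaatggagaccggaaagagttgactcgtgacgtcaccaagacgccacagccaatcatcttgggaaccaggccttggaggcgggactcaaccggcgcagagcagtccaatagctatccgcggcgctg
Mcm6, chr1:128359706-128359875, minus strand: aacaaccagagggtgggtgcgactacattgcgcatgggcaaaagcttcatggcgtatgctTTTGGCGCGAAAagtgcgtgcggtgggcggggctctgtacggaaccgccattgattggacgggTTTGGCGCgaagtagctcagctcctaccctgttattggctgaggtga
Mcm7, chr5:138171884-138172053, minus strand: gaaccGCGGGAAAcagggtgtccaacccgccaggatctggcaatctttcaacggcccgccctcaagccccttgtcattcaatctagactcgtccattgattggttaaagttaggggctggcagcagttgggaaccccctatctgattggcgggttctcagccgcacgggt
Cdc6, chr11:98907981-98908150, plus strand: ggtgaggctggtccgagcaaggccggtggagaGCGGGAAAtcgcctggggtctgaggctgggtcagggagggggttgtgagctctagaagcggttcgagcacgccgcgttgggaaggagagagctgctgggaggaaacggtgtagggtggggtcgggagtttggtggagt
Pola1, chrX:93632156-93632325, minus strand: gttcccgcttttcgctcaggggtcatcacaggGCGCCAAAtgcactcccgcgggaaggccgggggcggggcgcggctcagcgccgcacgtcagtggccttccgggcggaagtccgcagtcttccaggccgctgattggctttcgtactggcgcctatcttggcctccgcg
Gins3, chr8:95633389-95633558, plus strand: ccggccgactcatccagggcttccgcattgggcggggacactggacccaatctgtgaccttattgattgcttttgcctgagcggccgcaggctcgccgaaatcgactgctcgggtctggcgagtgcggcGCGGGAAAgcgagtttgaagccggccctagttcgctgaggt
Orc1, chr4:108579284-108579453, plus strand: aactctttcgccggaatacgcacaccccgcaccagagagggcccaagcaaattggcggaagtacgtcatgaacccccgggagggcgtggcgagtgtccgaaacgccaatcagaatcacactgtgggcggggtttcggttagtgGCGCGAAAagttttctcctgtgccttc
Orc3, chr4:34614943-34615112, minus strand: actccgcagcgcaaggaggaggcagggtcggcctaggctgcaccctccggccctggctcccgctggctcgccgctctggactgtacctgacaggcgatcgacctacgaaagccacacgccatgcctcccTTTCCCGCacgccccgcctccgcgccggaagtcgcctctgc
Mcm2, chr6:88898781-88898950, minus strand: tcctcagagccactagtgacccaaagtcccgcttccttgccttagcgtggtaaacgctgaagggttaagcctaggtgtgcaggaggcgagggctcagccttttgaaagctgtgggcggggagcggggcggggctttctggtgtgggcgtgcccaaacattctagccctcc

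An E2F word was found in 15 of the 36 genes, or 41.7%, and in 435 of 9610 other measured genes, or 4.53%. Among all 32851 promoter windows of the table the share was 2.26%. In the list of other replication genes it was 10 of 32, or 31.2%. The 15 genes were Orc1, Orc3, Cdc6, Cdt1, Mcm3, Mcm5, Mcm6, Mcm7, Gins3, Pola1, Pold1, Pold3, Pole2, Rfc3 and Lig1. They held 21 words, 14 of which began within 50 bases of the start. Mcm6 had 3, beginning at positions -110, -106 and -47 from the start, the first 2 of them overlapping.

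Genes with and without a word had overlapping ranges of log2 ratios. The 15 genes with a word had a median log2 ratio of 1.45, from 0.13 to 1.84, and 10 of them passed 2-fold. The lowest, 0.13, was that of Orc1, which was read close to the floor. The 21 genes with a window and no word had a median of 1.01, from 0.33 to 1.72, and 12 were at least 2-fold higher. No test was run between these sets, and a match of letters is neither a bound site nor a cause.

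Other motifs had shares nearer to those of the 9610 other measured genes. The CCAAT box, CCAAT, was found in 58.3% of the 36 genes and 42.4% of the others, and the GC box, GGGCGG, in 75% and 68.3%. The E-box CACGTG, which MYC and its relatives bind, was found in 16.7% and 11.6%. The cell cycle homology word TTTGAA was found in 19.4% and 14.1%. The cAMP response element TGACGTCA was found in 2 of the 36 genes, Mcm5 at position -99 and Orc5 at -69, or 5.56% against 3.51%. All were searched on both strands, and over all promoter windows the shares were 37.4%, 35.7%, 7.15%, 17.9% and 1.79% in that order.

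**Figure D3:**
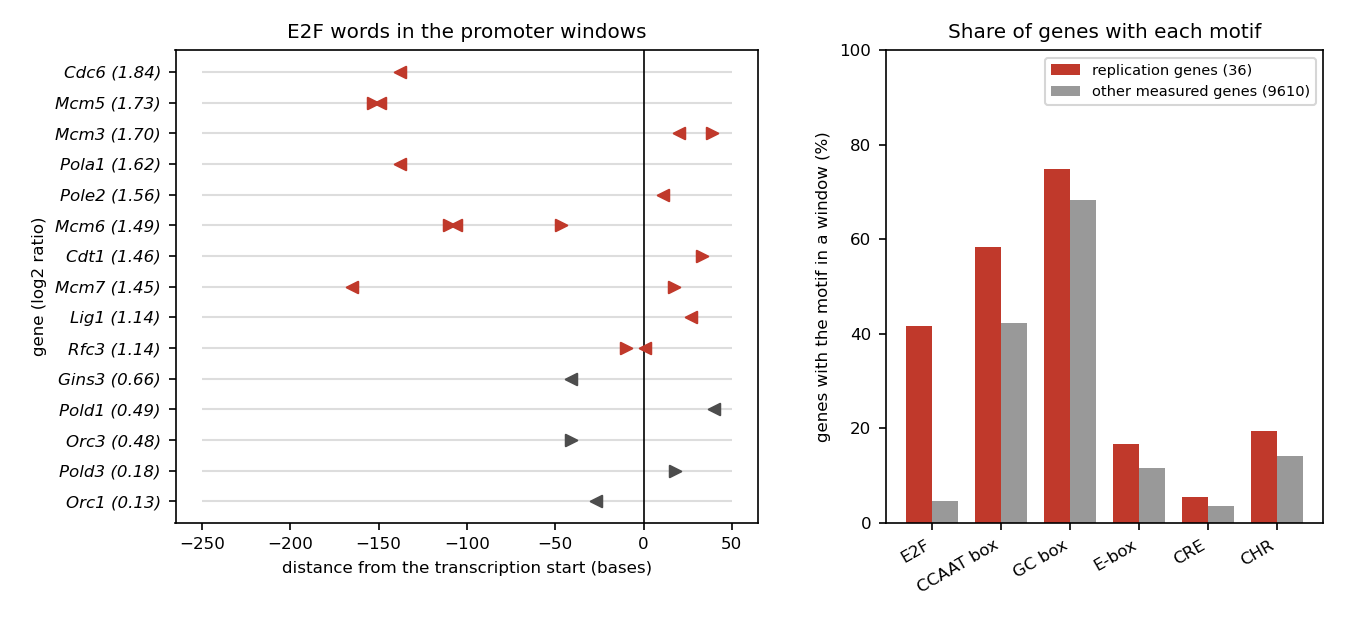
Left, position of each E2F word (x axis, bases from the transcription start) in 15 genes ordered by log2 ratio, with arrowheads pointing along the word and red for genes at least 2-fold higher. Right, share of genes with each motif among 36 replication genes (red) and 9610 other measured genes (grey); the E2F bars stand at 41.7% and 4.53%, and the bars of every other motif are closer to each other in ratio.

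Genes that turn the loaded ring into the CMG helicase spread widely, with 5 of 8 at least 2-fold higher and a median log2 ratio of 1.14. Dbf4, the regulatory subunit of the kinase that phosphorylates the MCM ring, went from 106 to 338, 3.31-fold. Averaged with a second probe set under the floor, its log2 ratio had a lower bound of 0.77. Its catalytic partner Cdc7 went from 49.8 to 75.5, 1.58-fold, and a second probe set cleared the floor with TDAG8 alone, at 24.4. By these probe sets the regulatory subunit had the larger ratio. With a floor at percentile 65 Dbf4 was at 1.70 and Cdc7 had a lower bound of 0.32. With all probe sets averaged, dim ones included, the log2 ratio of Cdc7 also had a lower bound of 0.77. Both averaged vector control signals lay below the floor, so these bounds do not order the pair. Mcm10, a scaffold of the initiating helicase, went from 35.4 to 68.4, 2.01-fold, and its other 2 probe sets were under the floor throughout.

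The 4 GINS genes encode the subunits of a single tetramer. Gins1 went from 33.9 to 116.9, 3.59-fold, but its log2 ratio of 1.84 became 0.56 with averaged probe sets and 0.95 with a floor at percentile 65. Gins2 went from 30.2 to 80.5, 2.78-fold, with a second Gins2 probe set going from 13.9 to 50.5. Gins3 went from 29.2 to 44.4, 1.58-fold, and Gins4 from 183 to 273, 1.55-fold. Only Gins4 had a control value far above the floor. At percentile 65 Gins4 was at 0.61, Gins2 had a lower bound of 0.41, and Gins3 was not measured. With averaging, the values of Gins1, Gins2 and Gins3 were all lower bounds. The order of the 4 genes is therefore not fixed under either setting. Cdc45, which binds the MCM ring together with GINS, went from 27.4 to 63.2, 2.40-fold, from a control value barely above the floor. Averaged with a second probe set that was below the floor on both arrays, Cdc45 had a lower bound of -0.006, which does not fix its side of 0. When the floor was raised to percentile 65, which turned dim control values into bounds, 1 gene of this step still passed 2-fold and the step's median was 0.41.

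Among 10 polymerase genes 6 passed 2-fold, with a median log2 ratio of 1.14. Polymerase alpha and primase start each strand. Pola1, the catalytic subunit, went from 47.0 to 138.5, 3.07-fold, and the primase catalytic gene Prim1 from 84.2 to 246, 3.04-fold. A second probe set of Prim1 gave 4.73-fold. Prim2, the large primase subunit, went from 44 to 101.8, 2.41-fold, and its second probe set gave 2.12-fold. Pola2, the accessory subunit, lay apart from these 3, going from 79.6 to 103.2, 1.35-fold.

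The polymerase delta genes had smaller ratios. Pold2, a structural subunit, went from 115.5 to 224, 2.02-fold. Pold1, the catalytic subunit of the enzyme that copies the lagging strand, went from 112 to 152, 1.41-fold, but its other probe set, going from 66.8 to 159, gave 2.48-fold. Pold3, the subunit that helps tie the enzyme to PCNA, went from 139 to 151 and had a log2 ratio of 0.18, with further probe sets at 0.29 and -0.35. Pold3 was thus not separated from 0 by its own probe sets.

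Polymerase epsilon, which copies the leading strand, had its essential subunits higher. Pole, the catalytic subunit, was below the floor in the vector control at 21.7 and reached 71.4, at least 2.83-fold higher; with a floor at percentile 65 the log2 bound was 0.24. Pole2 went from 65.2 to 185.0, 2.95-fold. Averaged with a second probe set that was dim on both arrays, it gave a lower log2 bound of -0.046, which does not fix its side of 0. Pole3, a histone-fold subunit that also belongs to a chromatin remodelling complex, went from 183 to 250 (1.42-fold), and its second probe set went from 76.0 to 161 (2.20-fold). The remaining Pole3 probe set cleared the floor with the vector control alone, at 29.6.

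The clamp gene Pcna went from 1206 to 2173, 1.88-fold, by its only probe set. Of the clamp loader genes, Rfc4 went from 75.2 to 168, 2.33-fold, Rfc5 from 72.3 to 157, 2.26-fold, and Rfc3 from 43.0 to 91.2, 2.21-fold. A second probe set of Rfc4 gave 3.08-fold, whereas that of Rfc3 gave 1.34-fold. Rfc1, the large subunit specific to the PCNA loader, went from 124 to 150, 1.26-fold, with further probe sets at 1.33-fold and 1.27-fold. Rfc2 went from 158 to 163, and its log2 ratio of 0.11 was the smallest of all 44, with a second probe set at 0.31. The loader genes thus lay on both sides of 2-fold, and Rfc2 to Rfc5 are shared with loaders that act at other steps.

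Single-strand binding genes were also graded. Rpa3, the smallest RPA subunit, went from 145 to 428, 3.08-fold. Rpa2, the subunit phosphorylated in S phase, went from 70.8 to 147, 2.16-fold, and its second probe set gave 3.36-fold. Rpa1, the main DNA-binding subunit, which also serves repair, went from 768 to 1128, 1.53-fold, with 1.30-fold by a second probe set. Both genes of lagging-strand maturation passed 2-fold. Fen1, the flap endonuclease, went from 171 to 471, 2.86-fold, and from 80.7 to 241 by a second probe set, 3.10-fold. Lig1, the ligase that seals Okazaki fragments, went from 79.0 to 168, 2.21-fold.

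Probe sets of the same gene were the closest thing to an error estimate on these arrays. Of the 52 further probe sets 31 were above the floor on both arrays, and 29 of these had ratios above 0, against 49.4% of all measured probe sets. The 2 below 0 belonged to Orc3 and Pold3. The 31 differed from the probe set standing for the gene by a median of 0.26 on the log2 scale, without regard to sign, and by at most 0.90. For 7763 such probe sets of all genes the median was 0.21 and the largest difference 2.27. Of those 7763, 131 differed by at least 2-fold, and none of the 31 did. This spread covers differences between probes on the same pools, not differences between mice. Of 22 genes with several such probe sets, 11 were at least 2-fold higher by every one, 6 by none, and Mcm2, Orc2, Pold1, Pole3 and Rfc3 by some. Over probe sets, 46 of 81 measured ones were at least 2-fold higher, against 4.87% of all 20926, and none was at least 2-fold lower, against 1.13%.

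The genes were then set beside other cell cycle genes. Of 43 genes in a G1/S list used to score single cells, 15 belong to the 44. Those 15 had a median log2 ratio of 1.41 with 12 past 2-fold, and the 29 replication genes outside the list had a median of 1.01 with 16 past it. The other 23 measured genes of the G1/S list had a median of 1.48, and 16 were at least 2-fold higher. The 53 measured genes of the matching G2/M list, none of them among the 44, had a median of 1.99. In that list 41 genes were at least 2-fold and 24 at least 4-fold higher, and 10 of the 53 ratios were lower bounds. None of the 44 was 4-fold higher by the probe set that stands for it, against 86 of all 11949 measured genes. These are descriptions of lists read on the same 2 arrays, and their differences were not tested.

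Of 41 further replication genes, which act in origin firing, fork protection, chromatin assembly and primer removal, 38 were measured and 12 passed 2-fold, with a median of 0.71. Of these 41 genes 6 are also in the G1/S list, and 1, Top2a, is also in the G2/M list. The highest were Top2a, a topoisomerase that untangles replicated DNA, at a log2 ratio of 2.44, and Ccne1, the cyclin that drives entry into S phase, at 2.05. Dtl, the adaptor of the ligase that destroys Cdt1 on loaded PCNA, was at 1.93, the histone chaperone gene Asf1b at 1.92 and the checkpoint adaptor gene Clspn at 1.73. Its fork protection partner Timeless was at 0.55. The small polymerase subunit genes Pold4 and Pole4 were at 0.55 and 0.95. The lowest were Rnaseh2c at -0.16, Kat7 at -0.04 and Poldip2 at -0.0037. None was at least 2-fold lower. Chaf1a and Ssrp1 have no single-gene probe set in the annotation and were not analysed here.

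**Figure D4:**
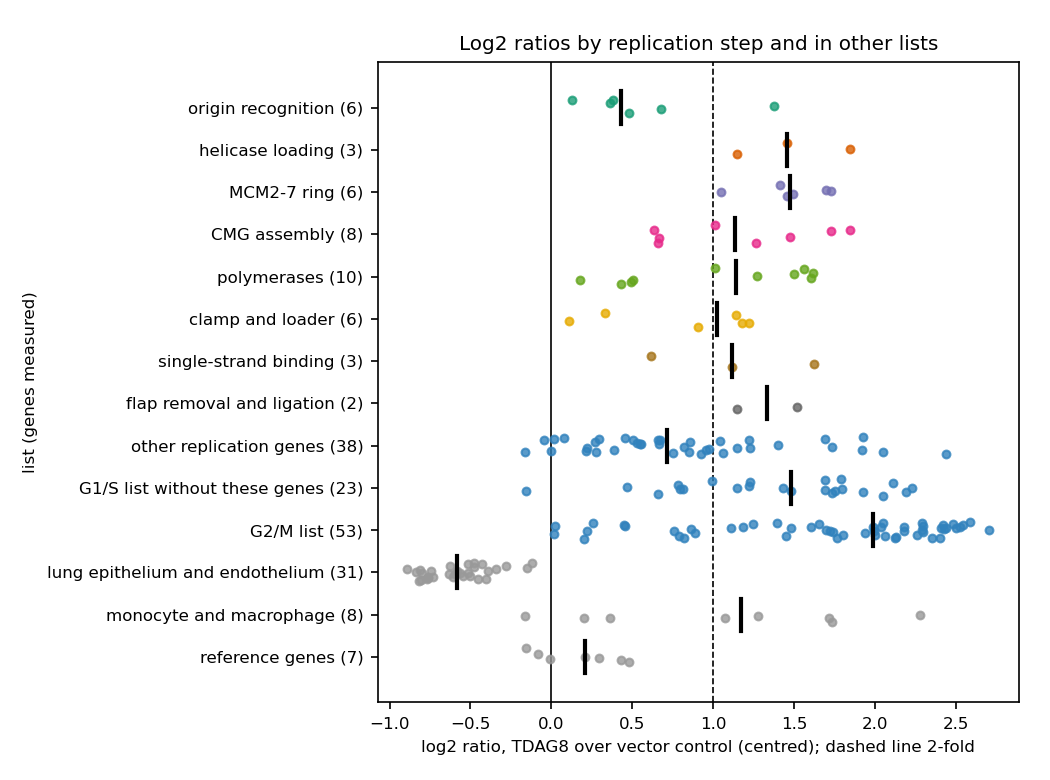
Log2 ratio, TDAG8 over vector control (x axis), of each measured gene, by replication step and in other lists (number of genes in brackets). Black bars are medians, the dashed line is 2-fold, and vertical scatter has no meaning. Origin recognition has its median at 0.43 and the MCM ring at 1.47, the G2/M list lies farther right at 1.99, and all lung epithelium and endothelium genes lie left of 0.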

How the data were processed

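Whole-lung RNA of 2 groups was measured, with RNA of 10 lungs pooled per array. Per the labels' protocols, 2 µg of it was made into biotin-labelled cRNA primed from the poly(A) tail, so probe sets read mostly the 3′ part of transcripts. The authors deposited 1 intensity per probe set, scaled so that the mean of an array is 100 once 2% of probe sets are trimmed at each end. The summarising software was not stated in the sources used here, and detection calls were not used. Both columns matched a sample and 0 were left over. The number of arrays limits the precision.

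Of 45101 probe sets, 64 control probe sets were set aside. In the platform annotation 34945 had 1 gene symbol, 932 several and 9160 none, and only the first were named. By gene identifier 34741 of them were matched to RefSeq (GRCm38.p6) and took the symbol given there. Medians and counts past a 2-fold limit were computed in Python 3.11.15 with pandas 2.3.3 and numpy 2.4.6, and loess curves with statsmodels 0.14.6. The procedure was tested on simulated data. No test was run with 1 array per group.

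The members, lists and steps were chosen with earlier results of these data known. All 44 members were named. Of the further replication genes, the 5 highest and 3 lowest above the floor on both arrays and 6 preset genes were named, and of each marker list the gene with the strongest signal. There were 8 processing alternatives, a 1.5-fold limit and 1 alternative added after seeing the data. The 9 promoters printed were chosen after their matches were seen.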

Additional observations from a re-analysis of the deposited data

How the results depend on the processing

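Every measured replication gene kept a ratio above 0 under all 8 alternatives, except Cdc45 at -0.006 and Pole2 at -0.046 when a gene's probe sets were averaged. Both values are lower bounds, because the averaged vector control signals fell below the floor, and they do not show a ratio below 0. The count at least 2-fold higher, 28 under the main setting, was 25 to 28 of 44 without centring, after quantile or loess normalization and with a floor at percentile 30. It was 22 of 38 measured genes without the _s_at, _x_at and _a_at probe sets, 19 of 42 measured genes with a floor at percentile 65, 17 of 44 with an offset instead of a floor and 18 of 41 with averaged probe sets. The share of all measured genes past that limit lay between 3.64% and 5.9% across settings. Genes at least 2-fold higher in all 9 settings were Cdt1, Gmnn, Mcm3, Mcm5, Orc6, Prim1 and Rpa3, and 16 genes were so in none. None was at least 2-fold lower in any setting, nor 1.5-fold lower in the main one. Single genes left the 2-fold group mainly with the offset (Mcm4, Cdc45, Gins2, Mcm10, Prim2, Pold2, Rfc3, Rfc4, Rfc5, Rpa2 and Lig1), with the higher floor (Cdc6, Cdc45, Gins1, Gins2, Mcm10, Prim2, Pold2, Pole and Rfc3) and with averaged probe sets (Mcm2, Mcm6, Cdc45, Gins1, Dbf4, Prim2, Pole2 and Rfc3, while Mcm10 and Pola1 were not measured). With the higher floor or averaged probe sets, the value of such a gene is a bound where its vector control signal fell below the floor. Averaging only those probe sets that passed the floor on both arrays, an alternative chosen after seeing the data, gave 25 of 43 and a median log2 ratio of 1.15.

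With a floor at percentile 65, which leaves more ratios as bounds, medians were 0.92 for all members, 0.41 for CMG assembly with 1 gene at least 2-fold higher, 0.62 for polymerases with 3, and 0.74 for clamp and loader, and 6 of the further replication genes passed. With the offset, which shrinks ratios of dim signals, they were 0.92, 0.71 with 2 genes, 0.89 for polymerases, 0.85 with 0 genes for clamp and loader, and 0.89 with 1 gene for single-strand binding, and 1 of the ligation genes passed. Averaging all probe sets, which includes those below the floor and turns some ratios into bounds, gave 0.91, 0.64 with 1 gene, 0.70 with 3 genes and 0.85 for clamp and loader. There 6 of the further replication genes passed, the G1/S list had a median of 0.91 with 13 genes, and 25 of the G2/M list passed. The clamp and loader median was 0.97 without centring and 0.69 without the _s_at, _x_at and _a_at probe sets, where 1 of the ligation genes passed; Fen1 was not measured there. No paired analysis was possible because each group had 1 array.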
